A study of Mus musculus with 56 samples.

Results

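Homozygous titin mKO muscle was examined 21 days after injection (21 dpi), in 4 muscles given AAV and 4 given saline, 8 of the 56 samples of the series. The 8 libraries were taken by their labels, and all 14870 genes measured were tested. The study asks what mechanical knock-out (mKO) of titin does to the transcripts of skeletal muscle, in whole tibialis anterior, a fast muscle of the mouse shin. The tested muscles were homozygous for the titin mKO allele and had received adeno-associated virus (AAV) that carries GFP fused to tobacco etch virus (TEV) protease. The muscles they were set against carried the same homozygous allele and had received saline (NaCl). Both groups of the pair therefore share the altered titin, and differ in virus, GFP and protease as well as in whatever the protease cuts. Wild-type (WT) muscles at 21 dpi, 4 with AAV and 4 with saline, were used for the same contrast without the allele, and homozygous muscles at 7 dpi, 5 with AAV and 4 with saline, for the same contrast earlier. Age, sex, strain and the promoter in the virus are not given in the sources used here. Whether each replicate is another animal is not labelled. The spread behind the p-values is therefore that between samples, pooled per gene over all 56 samples, and may be technical.

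Titin is a giant protein that runs along the sarcomere, the contractile unit of muscle, between Z-disc and M-band. It holds the myosin filaments in place and acts as a spring, and proteins docked along it are thought to sense stretch. In the mKO design titin carries a site that TEV protease can cut, so that the spring can be broken in the adult fibre. Injured or unloaded muscle is known to re-express embryonic myosins and acetylcholine receptor subunits, and a foreign protein delivered by AAV can be presented on class I molecules and draw T cells.

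The labels of tissue and virus were borne out by the transcripts. Fibre genes were among the most abundant of both groups, with Ckm (muscle creatine kinase) at 5355 to 12690.0 normalised counts in AAV muscle and 14972 to 17033 in saline muscle, while the cardiac myosin gene Myh6 stood at 1.55 to 3.19 and 5.23 to 10.2. The cardiac genes Nppa, Myl7 and Ryr2 were not among the genes measured, so the cardiac check rests on Myh6 alone. The viral transgene had 127, 465, 1103 and 866 normalised counts in homozygous AAV libraries 1 to 4, and at most 6 reads in any homozygous saline library. In WT AAV muscle it had 1267, 999, 111 and 648. The mean of the homozygous values minus that of the WT values was -0.17 on the log2 scale (exact two-sided permutation test, p = 0.8, n = 4 each). The smallest p this design allows is 0.0286. The 8 libraries held 19820594 to 27180498 reads.

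The values are counts that the authors had scaled to each library's effective size, and the scaling bears on every statement below. The effective size was 1.11 to 1.49 times the read total in AAV libraries and 0.867 to 0.92 times in saline libraries. The 20 most abundant genes took 22% to 29.5% of the counts in AAV muscle and 38.2% to 40.1% in saline muscle. Under simple scaling to the read total, the median log2 change of AAV over saline was 0.51, against 0.03 as deposited and -0.11 after quantile normalization. Directions below are those of the deposited scaling, under which the median gene hardly moved, and where another scaling turns a gene or a list this is said. In whole muscle, fewer cells of a type and less RNA per cell cannot be told apart.

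At day 21 embryonic contractile genes and genes of macrophages, T cells, antigen presentation and the interferon response were higher in homozygous AAV muscle. Genes of mitochondria, fuel use and blood vessels were lower. Of 14870 genes, 4584 were called higher (30.8%) and 3949 lower (26.6%) in AAV than in saline muscle, 57.4% in all (limma on log2(value + 1), Benjamini-Hochberg adjusted p under 0.05 over all genes). With a change of at least 2-fold there were 1713 higher genes (11.5%) and 587 lower genes (3.95%). In 3320 genes (22.3%) every AAV library lay above every saline library, and in 3025 genes (20.3%) every one lay below. The split of calls turned with the scaling, to 3683 higher and 5201 lower after quantile normalization and to 9536 higher and 1151 lower under read-total scaling. The fit shares 1 spread per gene over all 56 samples, and homozygous AAV muscle varied most of the 14 groups. With only the 8 samples fitted, 3458 genes were called higher and 3025 lower. Counts of list members below stand beside 30.8% higher and 26.6% lower of all genes, and some lists lie near these shares. Log2 changes are given ± the standard error of the fit and understate the change of genes with few counts. Where the 8 values of a gene are given below, the AAV and saline libraries do not overlap unless this is said.

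**Figure D1:**
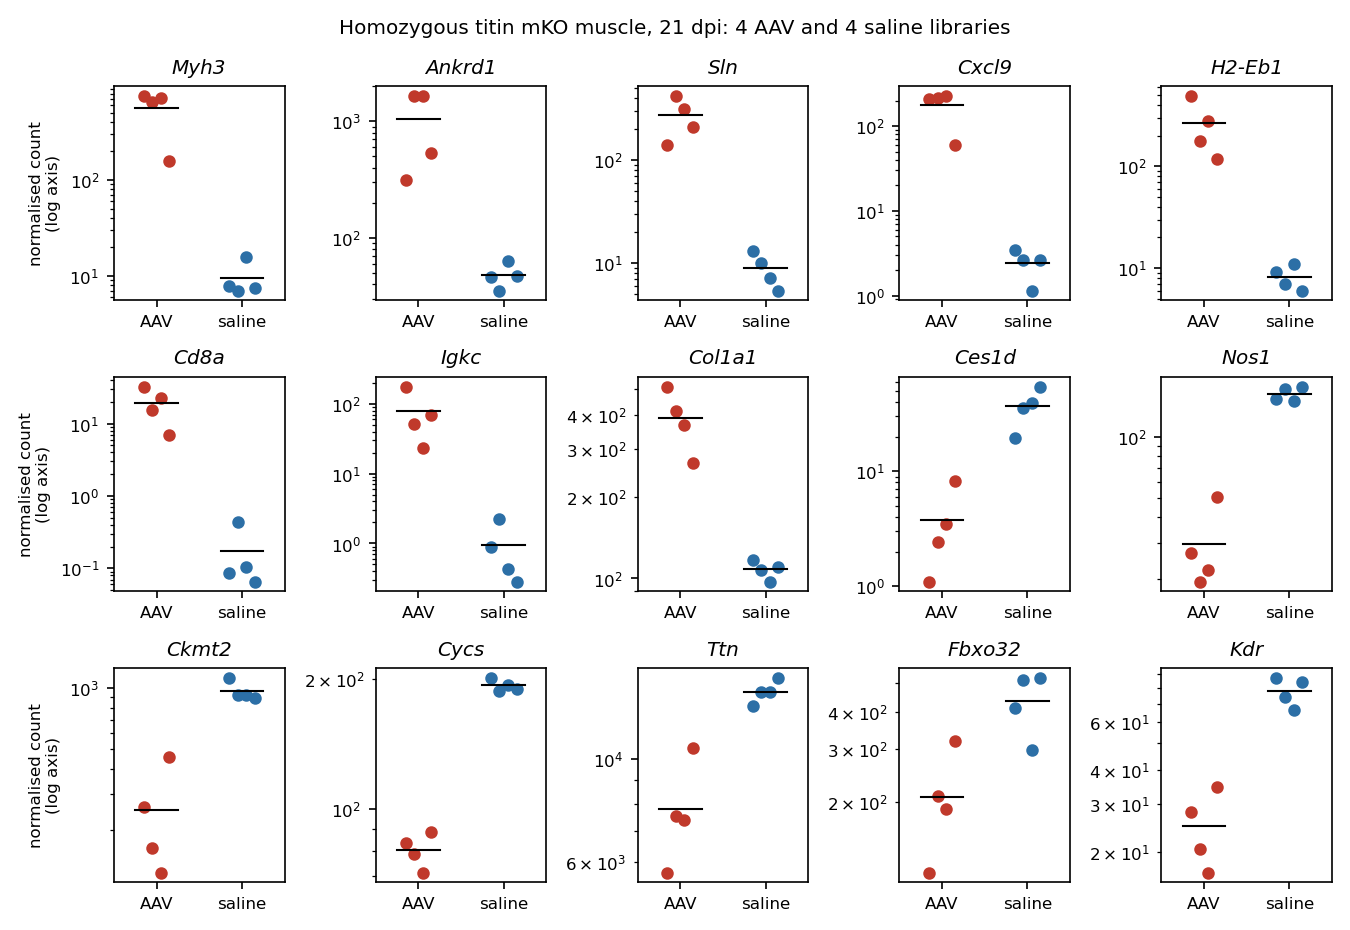
Normalised counts (log axis) of 15 genes in each homozygous library at 21 dpi, AAV left and saline right, replicates 1 to 4 in order within a group, with a bar at the mean. Of the genes shown, Fbxo32 alone has overlapping groups, and AAV library 4 lies nearest to saline for Myh3, Cxcl9, Cd8a and Nos1.

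Myh3 encodes embryonic myosin heavy chain, which fibres use before birth and again when they regenerate. It had 758, 645, 718 and 158 normalised counts in AAV libraries 1 to 4, against 7.89, 7.003, 15.9 and 7.48 in saline libraries 1 to 4. AAV libraries 1 to 3 were close together and library 4 was lower, but still above every saline library. The log2 change was 5.60 ± 0.58 (adjusted p = 4.4e-11, and 0.000223 with only the 8 samples fitted). It was the largest among named genes that did not overlap and had a mean of at least 5 normalised counts. Myh3 lies on chromosome 11, bases 67078300-67102291, plus strand of GRCm38. Perinatal myosin, Myh8, had 419, 97.9, 117 and 18.8 in AAV muscle and 8.23, 4.01, 4.71 and 4.51 in saline muscle, a change of 4.01 ± 0.53 (adjusted p = 1.37e-08). Here library 1 stood highest and library 4 lowest. The embryonic light chain Myl4 changed by 3.62 ± 0.47 and the embryonic troponin T gene Tnnt2 by 2.67 ± 0.42 (adjusted p = 7.38e-09 and 5.55e-07). Of 7 embryonic and perinatal contractile genes measured, 6 rose and none fell, with a median log2 change of 2.67 against 0.03 over all genes. The member not called was cardiac actin, Actc1, at 1.08, which quantile and read-total scaling called higher.

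Adult fast-fibre genes were lower in the deposited values. Myh4, the fast IIb myosin heavy chain, had 9741, 11065, 14663 and 21727 normalised counts in AAV muscle and 42862, 42562, 53946 and 59379 in saline muscle, with no overlap (log2 change -1.85 ± 0.25, adjusted p = 1.48e-08). The fast troponin T gene Tnnt3 changed by -1.15 ± 0.14 and Tpm1, a tropomyosin, by -1.16 ± 0.15 (adjusted p = 1.89e-09 and 1.43e-08). After quantile normalization they changed by -0.05 and -0.14, and neither was called (adjusted p = 0.611 and 0.418). Of 16 fast fibre genes, 13 fell and none rose, with a median of -0.81, but 3 fell and 4 rose after quantile normalization, and 7 fell and 2 rose under read-total scaling. With a replicate block 7 fell. Skeletal actin, Acta1, had 14567, 17954, 18091 and 27837 in AAV muscle and 32439, 29130.0, 30786 and 28222 in saline muscle, a change of -0.66 ± 0.16 (adjusted p = 0.000624) that turned to 0.5 after quantile normalization and had an adjusted p of 0.394 with the block. The fast regulatory light chain Mylpf did not differ beyond the spread, at -0.03 (adjusted p = 0.861).

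The slow-fibre genes split, with 4 of 10 called higher and 3 lower, against 30.8% and 26.6% of all genes. Myl3, the light chain of slow and ventricular myosin, fell to 31.1, 8.597, 5.82 and 47.4 normalised counts in AAV muscle, against 159, 141, 86.4 and 94.2 in saline muscle (-2.71 ± 0.53, adjusted p = 2.56e-05). Tnni1, slow troponin I, which developing muscle also makes, had 148, 55.9, 62.3 and 15.8 in AAV muscle and 3.19, 9.29, 4.88 and 8.26 in saline muscle (2.97 ± 0.65, adjusted p = 0.000118). Libraries 2 and 3 held least Myl3, and library 1 held most Tnni1. Mybpc1, the slow isoform of myosin-binding protein C, had a log2 change of -0.65 ± 0.12 (adjusted p = 1.13e-05), which was 0.03 after quantile normalization and had an adjusted p of 0.0606 with the block.

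Titin's own transcript had 5704, 7534, 7406 and 10560.0 normalised counts in AAV muscle and 12970.0, 13940.0, 13925 and 14934 in saline muscle, with no overlap. Ttn lies on chromosome 2, bases 76703980-76982547, minus strand. The log2 change was -0.87 ± 0.14 (adjusted p = 5.41e-07), but it turned to 0.43 after quantile normalization and had an adjusted p of 0.103 with a replicate block. The count is of transcripts, so it does not show whether the protein was cut. Neb (nebulin, the ruler of the thin filament) changed by -0.84 ± 0.13, Capn3 (a protease bound to titin) by -0.98 ± 0.10 and Tmod4 (a cap of the thin filament) by -0.85 ± 0.12. Their adjusted p-values were 3.24e-07, 1.52e-11 and 1.19e-07. For Neb it was 0.0561 with the block. Of 24 genes of the sarcomere scaffold, Z-disc and M-band, 16 fell and 1 rose with a median of -0.53, but 7 fell and 8 rose under quantile and likewise under read-total scaling. With the block 8 fell and 1 rose.

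The proteins that sit on titin and respond to stretch did not move as a group. Ankrd1, an ankyrin repeat protein of titin's elastic part, had 315, 1646, 1657 and 531 normalised counts in AAV muscle and 46.00, 35.3, 63.6 and 47.5 in saline muscle (4.10 ± 0.61, adjusted p = 1.61e-07). Libraries 2 and 3 stood about alike and far above libraries 1 and 4. Its relative Ankrd23 fell to 463, 1225, 1229 and 1556, against 2089, 2309, 2409.8 and 2602 in saline muscle (-1.20 ± 0.21, adjusted p = 5.11e-06). The third relative, Ankrd2, had 136, 96.7, 70.9 and 119.7 in AAV muscle and 435, 166, 321 and 134 in saline muscle, which overlap (-1.19 ± 0.56, adjusted p = 0.0652). Ankrd2 was called lower with the block (adjusted p = 0.0189) and with only the 8 samples fitted (adjusted p = 0.0236). Csrp3, a LIM protein of the Z-disc, had 411, 406, 301 and 326 in AAV muscle and 822, 269, 413 and 181 in saline muscle, where libraries 1 and 3 were high and libraries 2 and 4 low. The groups overlap (adjusted p = 0.999). Fhl2, a LIM protein bound to titin, rose by 1.01 ± 0.24 (adjusted p = 0.000382), and Pdlim7, a Z-disc adaptor, had a change of -0.47 ± 0.15 (adjusted p = 0.00654) that was 0.08 under read-total scaling and had an adjusted p of 0.0514 with the block. Of 16 stretch sensors, 2 rose and 4 fell with a median of 0.02, but 7 rose and 1 fell under quantile and likewise under read-total scaling.

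Genes of excitation and calcium handling were mostly lower, and sarcolipin was higher. Sln encodes sarcolipin, a small inhibitor of the sarcoplasmic calcium pump. It had 140.1, 419.6, 310.5 and 210.0 normalised counts in AAV muscle, against 12.98, 10.1, 7.12 and 5.38 in saline muscle (4.72 ± 0.45, adjusted p = 4.96e-12). The pump of fast fibres, Atp2a1, had 9616, 11164, 13068 and 22218 in AAV muscle and 30203, 30297, 34815 and 36909 in saline muscle (-1.31 ± 0.19, adjusted p = 1.6e-07, and 0.0908 with the block). After quantile normalization its change was -0.12 (adjusted p = 0.369). The slow-fibre pump, Atp2a2, rose by 1.57 ± 0.35 (adjusted p = 0.000158). The potassium channel gene Kcna7 fell by 1.49, the chloride channel gene Clcn1 by 1.19 and the sodium channel gene Scn4a by 1.17 (adjusted p = 3.41e-10, 8.73e-10 and 1e-09). Of 20 genes of this list, 3 rose and 14 fell with a median of -0.60, and under read-total scaling 6 rose and 8 fell.

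Nos1 encodes neuronal nitric oxide synthase, which is anchored to the dystrophin complex at the fibre membrane. It fell to 26.8, 19.3, 22.03 and 50.5 normalised counts in AAV muscle, against 154, 172, 151 and 177 in saline muscle (-2.52 ± 0.21, adjusted p = 2.08e-13). The water channel of the same complex, Aqp4, had 15.4, 20.1, 22.1 and 37.3 in AAV muscle and 59.5, 55.2, 76.1 and 86.1 in saline muscle (-1.56 ± 0.26, adjusted p = 1.41e-06). Library 4 held most of both among the AAV libraries. The structural members changed less: Sgcb (beta-sarcoglycan) by -0.34 ± 0.09 and Dtna (dystrobrevin) by -0.40 ± 0.10 (adjusted p = 0.00109 and 0.00113), and these became 0.22 and 0.16 under read-total scaling. With the block, the adjusted p of Sgcb was 0.0684. Of 16 members of the dystrophin complex 2 rose and 9 fell, while 12 rose and 2 fell under read-total scaling and 1 rose and 3 fell with the block.

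Genes that muscle switches on when its nerve is lost were higher. Runx1, a transcription factor of denervated fibres, had 43.5, 36.7, 43.2 and 21.4 normalised counts in AAV muscle and 4.38, 1.93, 2.68 and 2.81 in saline muscle (3.22 ± 0.31, adjusted p = 6.28e-12). Ncam1, an adhesion molecule of denervated and regenerating fibres, had 97.7, 129.5, 98.98 and 63.8 in AAV muscle and 13.03, 13.9, 16.3 and 10.2 in saline muscle (2.75 ± 0.31, adjusted p = 2.18e-10). Myog, the myogenic regulator myogenin, had 121, 65.9, 79.04 and 36.5 in AAV muscle and 4.67, 5.71, 9.899 and 4.47 in saline muscle (3.35 ± 0.42, adjusted p = 3.06e-09). The groups did not overlap for any of the 3. Chrng, the fetal gamma subunit of the acetylcholine receptor, rose by 3.32, whereas the adult epsilon subunit Chrne was not called, at 0.25 (adjusted p = 8.71e-08 and 0.303). Of 18 genes of denervation and acetylcholine receptor, 14 rose and 1 fell with a median of 1.25.

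Genes of muscle stem cells and fusion were higher too. Mymk, the membrane protein myomaker through which myoblasts fuse, had 72.1, 11.1, 23.3 and 3.12 normalised counts in AAV muscle and 0.537, 0.0208, 0.0623 and 0.0218 in saline muscle (3.92 ± 0.49, adjusted p = 3.62e-09). It was highest in library 1 and lowest in library 4. Vcam1, an adhesion molecule of activated stem cells and of vessels, rose by 2.65 ± 0.25, Nes (nestin, a filament of regenerating fibres) by 2.16 ± 0.26 and Myod1 by 1.45 ± 0.25 (adjusted p = 2.98e-12, 1.84e-09 and 3.37e-06). The stem cell factor Pax7 rose by 0.40 and Myf5 was not called, at 0.15 (adjusted p = 0.0284 and 0.583). With the replicate block the adjusted p of Pax7 was 0.0816. Of 18 satellite cell and myogenic genes, 12 rose and 3 fell. The inhibitor of muscle growth Mstn fell by 0.88 (adjusted p = 0.00155). Among 23 growth factor and Igf genes, 12 rose and 3 fell. Igf2 rose by 2.55 and Igf1 by 1.06, and Vegfa, the vessel growth factor, fell by 1.47 (adjusted p = 8.05e-08, 0.000293 and 3.79e-10). The H19 transcript, which shares the imprinted Igf2 locus, had 2929, 2777, 2280.3 and 2690.5 in AAV muscle and 2509, 1874, 1256 and 976 in saline muscle, which overlap, a change of 0.78 ± 0.27 (adjusted p = 0.0121) that was not called without saline library 4.

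**Figure D2:**
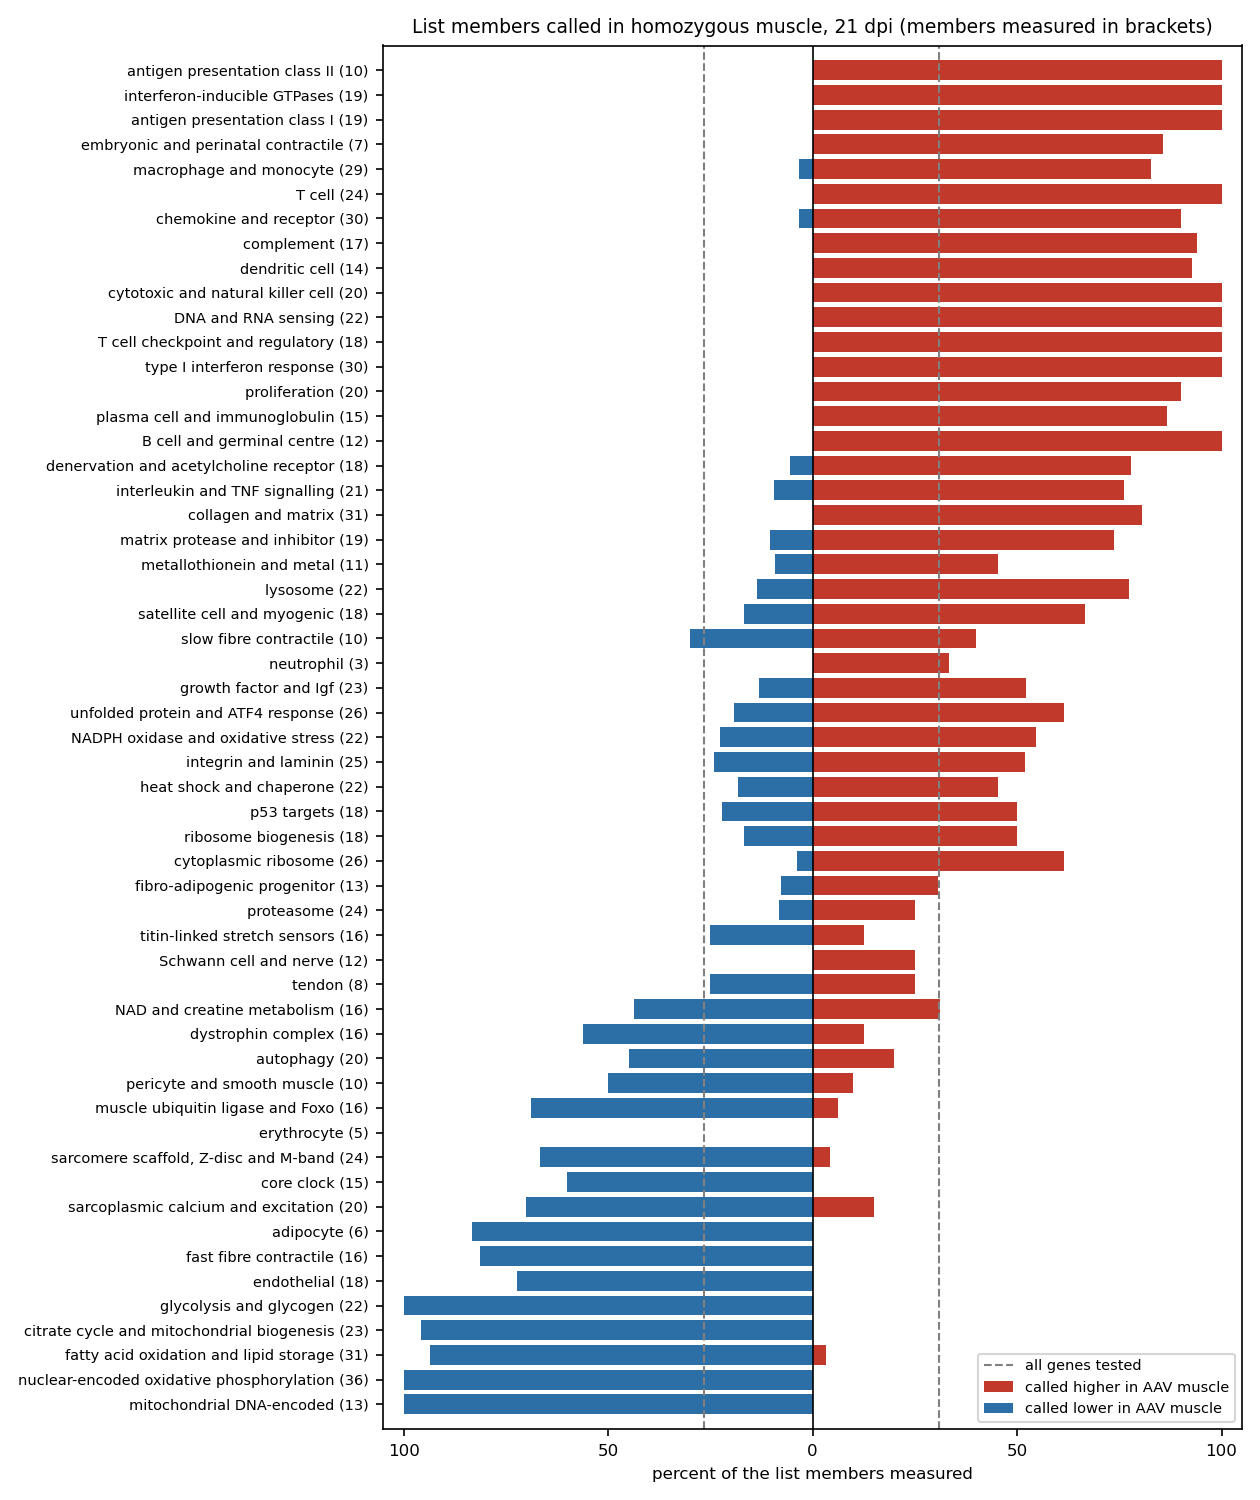
Percent of the measured members of 55 gene lists called higher (right) or lower (left) in homozygous AAV muscle against saline muscle at 21 dpi, ordered by median log2 change, with dashed lines for all 14870 genes (30.8% and 26.6%). Most lists at the top are immune, with the embryonic and perinatal contractile list among them, and the lowest lists are metabolic.

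Transcripts of energy metabolism fell together. Cycs encodes cytochrome c, the electron carrier between respiratory complexes III and IV. It had 83.6, 78.7, 71.4 and 88.7 normalised counts in AAV muscle and 201, 188, 194 and 190.0 in saline muscle, and the 4 AAV libraries lay close to each other (-1.26 ± 0.10, adjusted p = 3.39e-14). Ndufs1, of respiratory complex I, had 179, 179, 167 and 284 in AAV muscle and 452, 455, 486 and 500.0 in saline muscle (-1.26 ± 0.10, adjusted p = 1.19e-13). Ndufv2 of the same complex changed by -1.07 ± 0.09, and Atp5c1, of ATP synthase, by -1.09 ± 0.09. All 36 nuclear-encoded genes of oxidative phosphorylation fell, with a median of -0.99, and 35 did so after quantile normalization, 33 under read-total scaling and 35 with the block. Macrophage genes rose in the same libraries, 24 of 29 of them and with a summed level of 400.3 to 3518 in AAV libraries and 74.96 to 142.8 in saline libraries, and their part in these falls was not tested.

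The genes of mitochondrial DNA fell as well. The most abundant, mt-Co1 (a subunit of cytochrome oxidase), had 18859, 18431, 18435 and 30491 normalised counts in AAV muscle and 61309, 55618, 56069 and 59545 in saline muscle (-1.47 ± 0.21, adjusted p = 9.68e-08, and 0.13 with the block). After quantile normalization mt-Co1 did not differ at all, since it is the top value of all 8 libraries. The first 3 AAV libraries were nearly equal and the fourth stood above them. Cytochrome b, mt-Cytb, had 7388, 8194, 8169 and 12961 in AAV muscle and 25539, 23661, 23314 and 25458 in saline muscle (-1.45 ± 0.18, adjusted p = 2.66e-09), but its change was -0.08 after quantile normalization (adjusted p = 0.531). All 13 measured members fell, with a median of -1.50, and 10 fell after quantile normalization. These genes took 9.96% to 12.8% of the counts in AAV libraries and 19.4% to 21.6% in saline libraries.

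The enzymes that feed the respiratory chain were lower. Of 23 citrate cycle and mitochondrial biogenesis genes 22 fell, with Pdha1 (pyruvate dehydrogenase) at -1.38 ± 0.11 and Cs (citrate synthase) at -0.95 ± 0.09. Ppargc1a, the coactivator that drives mitochondrial biogenesis, had 8.102, 9.798, 11.1 and 18.2 in AAV muscle and 26.8, 28.2, 25.5 and 27.3 in saline muscle (-1.19 ± 0.18, adjusted p = 4.28e-07). Of 31 genes of fatty acid oxidation and lipid storage 29 fell and Plin2, a lipid droplet coat protein, rose, with Acadm (medium-chain acyl-CoA dehydrogenase) at -1.43 ± 0.16 and Hadhb (of the trifunctional protein) at -1.09 ± 0.12. All 22 glycolysis and glycogen genes fell, with a median of -0.94, among them Slc2a4 (the insulin-dependent glucose transporter) at -1.67 ± 0.17 and Pfkm (muscle phosphofructokinase) at -1.18 ± 0.16. After quantile normalization 15 of them fell and 2 rose, under read-total scaling 12 fell and 1 rose, and with the block 16 fell. Under read-total scaling 19 of the fatty acid oxidation and lipid storage genes fell.

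Among the 15 largest falls were enzymes and carriers of lipid and energy metabolism. Ces1d, a carboxylesterase that splits stored lipid, fell to 1.097, 2.42, 3.45 and 8.15 normalised counts in AAV muscle, against 19.6, 35.6, 39.3 and 54.3 in saline muscle (-3.12 ± 0.38, adjusted p = 2.15e-09). Ces1d lies on chromosome 8, bases 93166068-93197838, minus strand. Plin4, a coat protein of lipid droplets, had 37.9, 12.3, 26.04 and 78.7 in AAV muscle and 215, 168, 220.4 and 249 in saline muscle (-2.70 ± 0.34, adjusted p = 3.25e-09). Ckmt2, the creatine kinase of mitochondria, had 259, 163, 124 and 459 in AAV muscle and 1123, 926, 928 and 892 in saline muscle (-2.12 ± 0.21, adjusted p = 1.13e-11). Gpcpd1, a glycerophosphodiesterase, had 77.3, 69.3, 84.6 and 129 in AAV muscle and 420.2, 396, 399 and 416 in saline muscle (-2.21 ± 0.20, adjusted p = 2.16e-12). In Ces1d and Plin4 the AAV libraries ranged widely, and in all 4 genes library 4 held most. The 15 largest falls also held Fam57b, Myl3, Nos1, Efcab6, Adhfe1, Ppp1r1a, Slc25a34, Magix, Dusp26 and Ldhb, with log2 changes between -2.88 and -2.18. Of 15 core clock genes 9 fell and none rose, with Nr1d1 at -0.94 ± 0.17 and Hlf at -1.59 ± 0.28. The median of the list was -0.53, but under read-total scaling it was 0.03, with 5 fallen and 2 risen.

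Macrophage genes were among the largest rises. Ctss, the lysosomal protease cathepsin S of antigen-presenting cells, had 538, 121, 172 and 36.8 normalised counts in AAV muscle and 3.48, 3.89, 3.76 and 2.25 in saline muscle (5.07 ± 0.46, adjusted p = 1.3e-12). C1qa, of the first complement component, had 254, 78.9, 101 and 30.95 in AAV muscle and 5.85, 2.89, 5.08 and 2.68 in saline muscle (4.19 ± 0.37, adjusted p = 5.38e-13). Adgre1, the macrophage antigen F4/80, had 120.3, 25.6, 41.8 and 12.1 in AAV muscle and 2.06, 2.68, 1.31 and 1.16 in saline muscle (3.75 ± 0.36, adjusted p = 4.17e-12). In all 3 library 1 stood far above the others and library 4 was the lowest. Of 29 macrophage and monocyte genes 24 rose, with a median of 2.63 over the list. The member that fell was Nos2, the inducible nitric oxide synthase of activated macrophages, at -0.59 ± 0.20. Under read-total scaling Nos2 changed by -0.12 and was not called, and it was not called with a variance weight per group. Of 14 dendritic cell genes 13 rose, among them Itgax by 4.05 and Irf8 by 3.10. Complement rose in 16 of 17 members, and Cfb, factor B, changed by 4.11 ± 0.34 (adjusted p = 1.43e-13). Neutrophil markers stayed low: of 3 measured Csf3r, a growth factor receptor, rose by 2.32, and their summed level was 1.21 to 25.03 in AAV libraries and 0.545 to 1.78 in saline libraries.

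Genes known to be induced by interferons were higher. Iigp1, an immunity-related GTPase that attacks the vacuoles of intracellular pathogens, had 403, 1253, 810.4 and 161 normalised counts in AAV muscle and 10.9, 15.6, 10.4 and 11.7 in saline muscle (5.29 ± 0.63, adjusted p = 9.93e-10). Irgm2 had 252, 826, 621 and 186 in AAV muscle and 29.5, 31.6, 28.1 and 24.6 in saline muscle (3.75 ± 0.40), and Irgm1 changed by 2.98 ± 0.30 (adjusted p = 6.76e-11 and 1.51e-11). In Iigp1 and Irgm2 libraries 2 and 3 stood above library 1, unlike in the macrophage genes above. All 19 interferon-inducible GTPases rose, with a median of 3.45, and 17 of them did not overlap. Gbp family members are near copies of each other, so reads may be split among them. All 30 genes of the type I interferon response rose, with a median of 1.71. Isg15, a ubiquitin-like modifier, had 20.4, 8.703, 6.39 and 3.09 in AAV muscle and 2.29, 1.18, 1.06 and 1.42 in saline muscle (1.86 ± 0.36, adjusted p = 2.38e-05). Zbp1, a sensor of left-handed nucleic acid, changed by 4.40 ± 0.38. All 22 genes of DNA and RNA sensing rose, including Tlr9, the receptor for unmethylated DNA, at 2.44 ± 0.28.

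Promoters of these genes were searched for the core letters of the interferon response element, GAAA and GAAA with 2 bases between them on either strand, in the 250 bases before the start in RefSeq's entries for GRCm38.p6. Of the 19 GTPase genes 11 had an entry, and 10 of those held the letters, in 10 of 12 windows (83.3%). Over all 32851 windows the share was 2.98%. In the 14 windows of the fast fibre genes none held them, but 14 windows are few for so low a share. Of the windows of nuclear-encoded oxidative phosphorylation genes 2 of 30 held them (6.67%), and of those of class I antigen presentation genes 3 of 18 (16.7%). In the type I response list 9 of 21 genes with an entry held them. Of the 15 largest rises 7 had an entry, and Cxcl10 and Ctss held the letters. A match is a string and not a site shown to be used. The promoters of Irgm1 and Irgm2, chosen as GTPase genes, and of Cxcl10 and Ctss, chosen as the 2 among the largest rises, are shown to place the element, with its letters in capitals. In Irgm1 2 matches overlap.
Irgm1: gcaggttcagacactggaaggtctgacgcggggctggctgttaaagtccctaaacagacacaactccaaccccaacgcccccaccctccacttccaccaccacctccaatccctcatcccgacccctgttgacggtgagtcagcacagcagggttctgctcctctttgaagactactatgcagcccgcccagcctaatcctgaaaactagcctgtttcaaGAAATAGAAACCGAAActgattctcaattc
Irgm2: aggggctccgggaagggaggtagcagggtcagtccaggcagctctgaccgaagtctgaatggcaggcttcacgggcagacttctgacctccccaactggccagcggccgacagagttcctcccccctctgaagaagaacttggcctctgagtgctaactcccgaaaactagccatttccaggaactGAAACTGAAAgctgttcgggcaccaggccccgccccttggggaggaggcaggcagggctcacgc
Cxcl10: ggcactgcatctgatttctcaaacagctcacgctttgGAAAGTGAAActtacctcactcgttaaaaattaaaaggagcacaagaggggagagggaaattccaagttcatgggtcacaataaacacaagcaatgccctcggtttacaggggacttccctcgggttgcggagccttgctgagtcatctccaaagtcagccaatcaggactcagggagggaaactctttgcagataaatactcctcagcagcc
Ctss: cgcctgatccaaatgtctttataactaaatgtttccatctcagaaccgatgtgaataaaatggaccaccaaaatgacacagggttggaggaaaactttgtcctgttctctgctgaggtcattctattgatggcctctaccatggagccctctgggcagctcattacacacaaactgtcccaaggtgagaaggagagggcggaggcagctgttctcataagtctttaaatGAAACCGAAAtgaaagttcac
The windows lie at chr11:48871421-48871670 (minus strand) for Irgm1, chr11:58214727-58214976 (plus) for Irgm2, chr5:92348890-92349139 (minus) for Cxcl10 and chr3:95526536-95526785 (plus) for Ctss. The element of Ctss begins 21 bases before the start, and that of Cxcl10 213 bases before it. Searched in the same windows, STAT letters (TTCNNNGAA) were in 6 of 12 GTPase windows and 7.02% of all windows. MEF2 letters (CTA and TAG with 4 bases between them) were in none of the GTPase windows and 3.2% of all windows.

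Antigen presentation genes were higher in both classes. H2-Eb1, a class II beta chain, had 496, 179, 277 and 118 normalised counts in AAV muscle and 9.08, 7.04, 10.9 and 5.99 in saline muscle (4.69 ± 0.33, adjusted p = 4.13e-15). Cd74, the invariant chain that guards the class II groove, had 1494, 737, 879 and 293 in AAV muscle and 40.1, 43.2, 40.2 and 18.98 in saline muscle (4.39 ± 0.36, adjusted p = 1.4e-13). Each class II gene lay higher in every AAV library than in any saline library. All 10 class II genes rose, with a median of 3.86. All 19 class I genes rose as well, with a median of 2.79: H2-K1, a class I heavy chain, changed by 3.50 ± 0.29, Tapbp, which loads peptides, by 1.99 ± 0.17, and Psmb10, an immunoproteasome subunit, by 2.79 ± 0.22. The H2 genes are polymorphic paralogs, so the level of any single one is uncertain.

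Chemokines that attract T cells were among the largest rises. Cxcl9, a ligand of Cxcr3, had 211, 218, 229 and 60.3 normalised counts in AAV muscle and 3.42, 2.598, 1.14 and 2.59 in saline muscle (5.59 ± 0.46, adjusted p = 1.42e-13). Cxcl10, the second ligand, had 49.7, 59.5, 58.7 and 20.8 in AAV muscle and 0.254, 0.603, 0.643 and 0.632 in saline muscle (4.88 ± 0.37, adjusted p = 1.64e-14). Their receptor, Cxcr3, had 8.89, 4.36, 6.39 and 3.19 in AAV muscle and 0.0848, 0.0208, 0.0208 and 0.0654 in saline muscle (2.60 ± 0.19, adjusted p = 8.68e-15). AAV library 4 held least of each, and still lay above every saline library. The smallest values, such as 0.0208, stand for 0 reads, so the fitted change of Cxcr3 depends on the 1 added before the log. Of 30 chemokine and receptor genes 27 rose and 1 fell, and that one, Cxcl12, a chemokine of vessels and stroma, fell by 0.55 (adjusted p = 0.00223). Its change was 0.01 under read-total scaling, and its adjusted p was 0.0888 with the block.

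T cell genes were higher with them. Cd8a, the co-receptor of cytotoxic T cells, had 32.4, 15.4, 22.8 and 6.92 normalised counts in AAV muscle and 0.0848, 0.436, 0.104 and 0.0654 in saline muscle (3.95 ± 0.33, adjusted p = 1.94e-13). Trbc2, of the T cell receptor, changed by 3.35 ± 0.25, Cd3g by 3.45 ± 0.26 and the kinase Lck by 3.53 ± 0.25 (adjusted p = 8.68e-15, 1.29e-14 and 4.45e-15). All 24 T cell genes rose without overlap, with a median of 2.49 and a summed level of 92.7 to 297.1 in AAV libraries and 12.3 to 18.3 in saline libraries. All 20 cytotoxic and natural killer genes rose, with a summed level of 47.4 to 223.5 in AAV libraries and 1.48 to 2.21 in saline libraries. Nkg7, a granule protein, had 20.4, 10.8, 14.7 and 5.603 in AAV muscle and 0.0283, 0.145, 0.0208 and 0.0654 in saline muscle. Of the 18 checkpoint and regulatory genes all rose. Pdcd1, the inhibitory receptor PD-1, had 7.97, 5.03, 5.91 and 2.23 in AAV muscle and 0.0283, 0.0208, 0.0623 and 0.0218 in saline muscle, where 3 libraries had 0 reads. Foxp3, which marks regulatory T cells, had 2.603, 1.99, 2.16 and 1.11 in AAV muscle and 0.0283, 0.0623, 0.145 and 0.153 in saline muscle.

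B lineage genes were higher but uneven. Igkc, the constant part of the kappa light chain, had 176, 50.8, 23.4 and 69.5 normalised counts in AAV muscle and 0.876, 2.22, 0.436 and 0.283 in saline muscle (5.11 ± 0.41, adjusted p = 6.85e-14). Jchain, which joins IgA and IgM subunits, had 68.96, 23.7, 7.48 and 12.9 in AAV muscle and 0.763, 2.22, 0.228 and 0.283 in saline muscle (3.62 ± 0.35, adjusted p = 8.46e-12). Igha, the IgA heavy chain, had 71.3, 26.7, 2.13 and 6.396 in AAV muscle and 0.65, 0.0208, 0.975 and 0.0218 in saline muscle (3.43 ± 0.44, adjusted p = 8.3e-09). Library 1 held most of each and library 3 least, whereas library 4 was lowest in the T cell genes given above. Of 15 plasma cell and immunoglobulin genes 13 rose, and of 12 B cell genes all rose, with a summed level of 8.89 to 111.6 in AAV libraries and 1.91 to 3.00 in saline libraries. Immunoglobulin segments share sequence, and a fitted change of a gene near 0 in saline muscle depends on the value added before the log. Of 20 proliferation genes 18 rose, and Mki67 had 42.2, 11.4, 17.8 and 6.59 in AAV muscle and 0.65, 0.769, 0.436 and 0.545 in saline muscle (3.38 ± 0.37).

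Signals between these cells were higher as well. Of 21 interleukin and TNF signalling genes 16 rose and 2 fell. Il12b, a subunit of interleukins 12 and 23 that dendritic cells release, changed by 1.89 ± 0.19, Tnfrsf1b, a TNF receptor of leukocytes, by 2.53 ± 0.27, and Socs1, a brake on interferon receptors, by 2.56 ± 0.29. Those that fell were Jak2, a kinase of cytokine receptors, at -0.71 ± 0.12, and Il15, which muscle fibres release, at -0.50 ± 0.16. Under read-total scaling Jak2 changed by -0.16, Il15 stood level in both groups and neither was called. With the block the adjusted p of Il15 was 0.0959. Of 25 integrin and laminin genes 13 rose and 6 fell. Those that rose most were leukocyte integrins, Itgax at 4.05 ± 0.34, Itgb2 at 3.73 ± 0.35 and Itgal at 3.70 ± 0.32, while the laminin gene Lama5 of vessel basement membrane was at -1.05 ± 0.13. The integrin of the fibre membrane, Itga7, rose by 1.06 ± 0.17. Of 11 metallothionein and metal genes 5 rose and 1 fell, with the metallothionein Mt2 at 2.71 ± 0.44 and Slc40a1, the iron exporter ferroportin, at -1.39 ± 0.20.

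Matrix genes were higher. Col1a1, the main chain of collagen I, had 509, 415, 367 and 266 normalised counts in AAV muscle and 117, 108, 97.3 and 110.5 in saline muscle (1.80 ± 0.34, adjusted p = 1.09e-05). Col3a1 had 974, 699, 597 and 516 in AAV muscle and 307, 201, 169.9 and 168 in saline muscle (1.72 ± 0.26, adjusted p = 1.85e-07). Bgn, the proteoglycan biglycan, changed by 2.10 ± 0.24. In each the groups did not overlap. Of 31 collagen and matrix genes 25 rose and none fell, with a median of 0.92. Of 19 matrix proteases and inhibitors 14 rose and 2 fell, among them Serpinb1a at 3.20 ± 0.38, Timp1 at 2.74 ± 0.37, Serpina3n at 2.41 ± 0.25 and Timp2 at 1.13 ± 0.12. Of 13 genes of fibro-adipogenic progenitors, the stromal cells that make matrix, 4 rose and 1 fell, against 30.8% and 26.6% of all genes. The summed level of these progenitor genes was 1038 to 1398 in AAV libraries and 953.3 to 1137 in saline libraries. Pdgfra, their defining receptor, changed by 0.56 ± 0.15 (adjusted p = 0.00173), and Cd34 by -0.41 ± 0.12, which became 0.14 under read-total scaling. Tendon genes, 2 of 8 called higher and 2 lower, had a summed level of 99.9 to 180.0 in AAV libraries and 78.4 to 193.7 in saline libraries, and their part in the matrix values was not tested.

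Vessel genes were lower. Kdr, the receptor for Vegfa on endothelium, had 27.9, 20.6, 16.8 and 34.5 normalised counts in AAV muscle and 87.1, 74.3, 66.2 and 84.3 in saline muscle (-1.65 ± 0.19, adjusted p = 4.96e-10). Flt1, a second Vegf receptor, had 21.9, 21.3, 22.3 and 42.3 in AAV muscle and 70.9, 59.7, 80.1 and 91.1 in saline muscle (-1.50 ± 0.19, adjusted p = 3.67e-09). Of 18 endothelial genes 13 fell and none rose, with a summed level of 233.6 to 386.6 in AAV libraries and 523.5 to 627.0 in saline libraries, while under read-total scaling 10 fell and 2 rose. Of 10 pericyte and smooth muscle genes 5 fell and 1 rose, with Rgs5, a pericyte regulator, at -1.45 ± 0.15. Under read-total scaling 3 fell and 3 rose. Of 12 Schwann cell and nerve genes 3 rose and none fell, with 3 each way after quantile normalization and 7 risen under read-total scaling, and the myelin gene Mbp was not called, at 0.01 (adjusted p = 0.974). No erythrocyte gene of 5 was called, but their summed level ran between 64.7 and 1200 in AAV libraries, against 143.4 to 731.6 in saline libraries.

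Muscle ubiquitin ligases were mostly lower in the deposited values. The muscle ubiquitin ligase Fbxo32 (atrogin) had 116, 209, 189 and 319 normalised counts in AAV muscle and 412, 511, 299 and 521 in saline muscle, which overlap in 1 library of each (-1.12 ± 0.27, adjusted p = 0.000533). Its partner in atrophy, Trim63, had 93.8, 183, 166 and 200.4 in AAV muscle and 217, 227, 179 and 202 in saline muscle, which overlap (-0.41 ± 0.16, adjusted p = 0.0316). The change of Trim63 was 0.15 under read-total scaling, its adjusted p was 0.136 with the block, and the call was lost without AAV library 1, saline library 1 or saline library 2. Of 16 muscle ubiquitin ligase and Foxo genes 11 fell and 1 rose. The one that rose was Fbxo30, a ligase of the same pathway, at 0.91 ± 0.13. Under read-total scaling 5 fell and 5 rose. Of 24 proteasome genes 6 rose and 2 fell, against 30.8% and 26.6% of all genes. Under quantile normalization 18 rose and none fell. With the block 2 rose and 1 fell. Psmb7 changed by -0.34 ± 0.07 and became 0.22 under read-total scaling.

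The small heat shock protein gene Hspb8, which with Bag3 clears damaged filamin, had 835, 1589.6, 1389 and 1192 normalised counts in AAV muscle and 423, 443, 487 and 368 in saline muscle (1.51 ± 0.16, adjusted p = 4.51e-11). Hspa2, a testis-rich Hsp70, had 16.3, 46.8, 43.3 and 32.3 in AAV muscle and 9.81, 10.1, 7.82 and 8.26 in saline muscle (1.74 ± 0.21, adjusted p = 1.22e-09). AAV library 1 was the lowest for both. Of 22 heat shock and chaperone genes 10 rose and 4 fell, and Bag3 was not called, at 0.34 (adjusted p = 0.121). Of 26 unfolded protein and ATF4 response genes 16 rose and 5 fell, with the folding enzymes Pdia3 at 1.17 ± 0.17 and Pdia4 at 1.03 ± 0.15, and Atf5 at -1.03 ± 0.15. Of 22 lysosome genes 17 rose and 3 fell, with Ctsk (cathepsin K) at 1.68 ± 0.17 and Npc2, which exports cholesterol, at 1.61 ± 0.20. Lamp1, a lysosomal membrane protein, had a change of -0.40 ± 0.05 that became 0.17 under read-total scaling. Of 20 autophagy genes 4 rose and 9 fell, and under read-total scaling 13 rose and 2 fell.

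Of 18 p53 targets 9 rose and 4 fell. Cdkn1a, the cell cycle inhibitor p21, had 161, 185, 185 and 89.4 normalised counts in AAV muscle and 29.3, 38.4, 55.01 and 37.9 in saline muscle (1.90 ± 0.28, adjusted p = 1.97e-07). Gdf15, a stress hormone, had 1.13, 3.05, 3.09 and 1.64 in AAV muscle and 0 reads in the saline libraries. Of 22 genes of NADPH oxidase and oxidative stress 12 rose and 5 fell: Ncf1, an oxidase subunit of phagocytes, changed by 3.13 ± 0.31, and Sod2, the superoxide dismutase of mitochondria, by -1.38 ± 0.14. Of 26 cytoplasmic ribosome genes 16 rose and 1 fell, and with the block 7 rose. The muscle paralog Rpl3l fell to 109, 157, 149.6 and 286, against 358, 375, 413 and 415 in saline muscle, while Rpl3 rose to 267, 139.6, 165 and 89.00, against 45.6, 36.8, 38.9 and 40.3 (-1.24 ± 0.14 and 1.90 ± 0.19). The translation factor Eef1a1 had 1921, 1084, 1226 and 589.7 in AAV muscle and 300.1, 286, 267 and 266 in saline muscle (1.98 ± 0.20). Among the 5 most abundant genes called higher, Des (desmin, the filament that ties Z-discs together) changed by 0.43 ± 0.12 and Rtn4 by 0.21 ± 0.09. With the block their adjusted p-values were 0.212 and 0.283, and Rtn4 was not called without AAV library 2, 3 or 4 or without saline library 1, 2 or 3.

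The same contrast was made in wild-type muscle, which received the same virus but does not carry the allele. WT AAV muscle, set against WT saline muscle at 21 dpi, had 3101 genes called higher (20.9%) and 2811 lower (18.9%), 39.8% in all. The split was 2406 higher and 3412 lower after quantile normalization, and 6606 higher and 706 lower under read-total scaling. The homozygous and WT contrasts share no samples. Of the genes higher in homozygous AAV muscle 59.3% were also higher in WT AAV muscle, which is 87.7% of those higher in WT. Of the genes lower in homozygous AAV muscle 58.2% were also lower in WT AAV muscle, which is 81.8% of those lower in WT. Of the genes higher in homozygous AAV muscle 11 were lower in WT AAV muscle, and of those lower 6 were higher. Myh3 had 129, 35.7, 273 and 215 normalised counts in WT AAV muscle and 2.17, 2.36, 2.07 and 2.29 in WT saline muscle, which do not overlap, and it rose there too (5.33 ± 0.58). Cd8a had 1.35, 1.12, 9.53 and 13.7 in WT AAV muscle and 0.0716, 0.0278, 0.188 and 0.165 in WT saline muscle. All 19 GTPase genes but 1, all 10 class II genes and all 24 T cell genes were also called higher in WT.

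The difference between the genotypes was tested directly, as the homozygous response minus the WT response. At adjusted p under 0.05, 295 genes were higher (1.98%) and 490 lower (3.3%) in that difference, 5.28% in all. Read-total scaling gave 1319 higher and 288 lower. With only the 4 groups fitted 78 genes were called, and with a replicate block 38. Without homozygous AAV library 2 there were 484 calls, without library 3 there were 436 and without library 4 there were 2228. Without WT AAV library 1 there were 484 calls and without WT AAV library 2 there were 434. Of the 29 genes named for this difference, 8 were called with the block and 7 with only the 4 groups fitted.

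Genes of the respiratory chain had a lower response in homozygous muscle. Of the 36 nuclear-encoded genes of oxidative phosphorylation, 31 were called lower in the difference and none higher, and the list's median response was -0.99 in homozygous and -0.22 in WT muscle. This count was 32 after quantile normalization, 30 under read-total scaling, 10 with only the 4 groups fitted and 4 with the block. Cycs had 191, 194, 163 and 148 normalised counts in WT AAV muscle and 203, 214, 204 and 186 in WT saline muscle, and the groups overlap (-0.22 ± 0.10, adjusted p = 0.0712). The homozygous AAV libraries lay below all 4 WT AAV libraries. The difference in response was -1.03 ± 0.14 (adjusted p = 7.3e-06, and 0.0149 with the block). For Ndufv2 it was -0.80 ± 0.13 (adjusted p = 8.75e-05, and 0.0446 with the block). Both calls held in every alternative fitted. Ndufs1 (complex I) and Atp5c1 (ATP synthase) had differences of -0.79 ± 0.15 and -0.63 ± 0.13 (adjusted p = 0.00056 and 0.00129), and with the block 0.072 and 0.114. Of 13 genes of mitochondrial DNA 8 differed, of 23 citrate cycle genes 15, of 31 fatty acid oxidation genes 11 and of 22 glycolysis genes 6, all lower, and with the block 0, 0, 2 and 0. The mt-Cytb difference was -0.85 ± 0.25, with an adjusted p of 0.0383 that was 0.5 with the block. The summed macrophage level was 400.3 to 3518 in homozygous AAV libraries and 449.8 to 1370 in WT AAV libraries, with no member called in the difference. The summed T cell level was 92.7 to 297.1 in homozygous AAV libraries and 50.8 to 187.6 in WT AAV libraries, with 5 of 24 members called higher in the difference and none with the block. The part of these cells in the result was not tested.

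**Figure D3:**
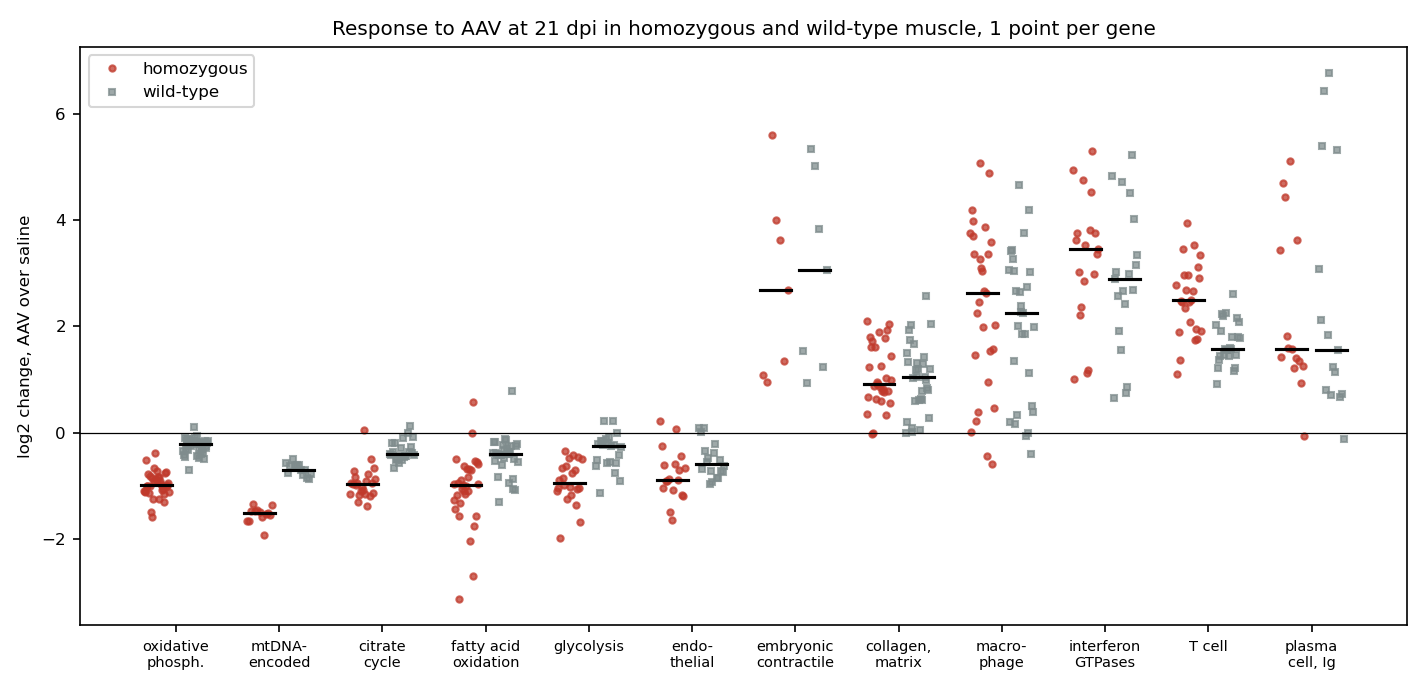
Log2 change of AAV over saline at 21 dpi for each gene of 12 lists, homozygous (circles, left) and wild-type (squares, right), with a bar at each list's median. The metabolic lists lie lower in homozygous muscle, while embryonic contractile, collagen and GTPase lists overlap between genotypes.

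Among the genes named here for a higher response in homozygous muscle, 1 held in every alternative. Cx3cl1, a membrane-bound chemokine that tethers monocytes, had 47.3, 145, 146 and 91.3 normalised counts in homozygous AAV muscle and 6.87, 9.16, 15.2 and 6.82 in homozygous saline muscle. In WT muscle it had 2.998, 2.71, 4.82 and 7.66 with AAV and 2.32, 1.53, 3.68 and 1.01 with saline, and these overlap. The difference was 2.49 ± 0.52 (adjusted p = 0.00211, and 0.0446 with the block), and it was called in every alternative fitted. Dsp, desmoplakin of cell junctions, had 1.03, 15.02, 16.8 and 9.404 in homozygous AAV muscle and 0.0531 to 0.108 in the WT AAV libraries. Its difference was 2.95 ± 0.40 (adjusted p = 7.42e-06), which was 0.0788 with the block and 0.47 with edgeR. The Dsp call was also lost with DESeq2 and with only the 4 groups fitted. Ripply1, a repressor known from somite formation, had 3.16, 12.02, 14.1 and 5.83 in homozygous AAV muscle and 0.221, 0.0221, 0.367 and 0.372 in WT AAV muscle (2.77 ± 0.31, adjusted p = 1.51e-07). The Ripply1 call was lost in the count tests of edgeR and DESeq2, where the WT values rest on few reads. Th, tyrosine hydroxylase, and Sfrp2, a Wnt antagonist, differed by 2.18 ± 0.36 and 2.22 ± 0.45 (adjusted p = 0.000145 and 0.00138), and neither was called with only the 4 groups fitted. Sln differed by 2.16 ± 0.64 (adjusted p = 0.0362, and 0.155 with the block and 0.673 with edgeR). Aldh3a1, an aldehyde dehydrogenase, and Sfrp1, a second Wnt antagonist, differed by 2.30 ± 0.49 and 2.11 ± 0.53, with blocked adjusted p-values of 0.178 and 0.0865. Cd8a and Pdcd1 differed by 1.70 ± 0.47 and 1.48 ± 0.35, with adjusted p-values of 0.0235 and 0.00579. These were 0.258 and 0.217 with the block, and 0.817 and 0.864 with edgeR. Hspb8 differed by 0.75 ± 0.22 (adjusted p = 0.0378, and 0.168 with the block).

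Genes with a lower response in homozygous than in WT muscle included Grb14, an adaptor that dampens insulin receptor signalling. It had 6.498, 6.76, 2.16 and 7.42 normalised counts in homozygous AAV muscle and 22.99, 27.1, 15.4 and 21.4 in homozygous saline muscle, and in WT muscle 18.9, 19.3, 27.2 and 17.6 with AAV and 23.2, 21.4, 26.9 and 17.8 with saline, which overlap. The difference was -1.72 ± 0.36 (adjusted p = 0.0021, and 0.0149 with the block), called in every alternative. Nos1 had 109, 134, 108 and 92.6 in WT AAV muscle and 234, 213, 230.2 and 244 in WT saline muscle, so it fell in both genotypes, and the difference was -1.46 ± 0.30 (adjusted p = 0.00193, and 0.0501 with the block). Ckmt2 differed by -1.58 ± 0.30 (adjusted p = 0.000592, and 0.0823 with the block). Efcab6 differed by -1.82 ± 0.34 (adjusted p = 0.000511, and 0.0516 with the block). Ces1d differed by -1.82 ± 0.54, Plin4 by -1.64 ± 0.48, Fam57b by -1.66 ± 0.41 and Kdr by -0.93 ± 0.27, and each of these calls was lost when only the 4 groups were fitted. With the block the adjusted p was 0.0954 for Plin4, 0.072 for Fam57b and 0.077 for Kdr. Of 29 alternatives, 14 lost the call of Ces1d, 15 that of Plin4, 2 that of Fam57b and 11 that of Kdr. Cilp, a cartilage matrix protein, had 540.3, 1135, 881 and 1180.3 in homozygous AAV muscle and 337, 482, 779 and 507 in homozygous saline muscle, but 84.1, 39.5, 157 and 185 in WT AAV muscle and 7.998, 13.9, 18.7 and 11.9 in WT saline muscle. The homozygous groups overlap and its change there was not called, at 0.83 ± 0.40 (adjusted p = 0.0695). It was called higher there under quantile and read-total scaling and with the block, so Cilp did not fall in homozygous AAV muscle. The difference between saline groups was not tested. The difference in response was -2.06 ± 0.56 (adjusted p = 0.0204), which was lost after quantile normalization (0.0512), with the block (0.072) and without homozygous AAV library 1, homozygous saline library 3 or WT saline library 1. Igfn1, Mdga1, Jchain and Igkv17-127 differed by -2.24 ± 0.56, -1.72 ± 0.45, -1.70 ± 0.50 and -2.28 ± 0.65, with blocked adjusted p-values of 0.0538, 0.142, 0.268 and 0.322. Jchain and Igkv17-127 did not fall in homozygous AAV muscle but rose, by 3.62 ± 0.35 and 2.52 ± 0.46. Their negative differences therefore stand for a smaller rise than in WT muscle. The responses of Myh3, Ankrd1, Cxcl9 and Ttn were not called as different, at 0.27 ± 0.83, 0.66 ± 0.86, 1.01 ± 0.66 and -0.34 ± 0.19. After quantile normalization the difference of Ttn turned to 0.48 and was called higher (adjusted p = 0.0386).

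The homozygous response was then set against that of day 7. T cell, antigen presentation and immunoglobulin genes responded more at day 21, and several matrix genes responded less. The response at 21 dpi minus that at 7 dpi called 1269 genes higher (8.53%) and 841 lower (5.66%), 14.2% in all. Quantile normalization gave 1080 higher and 1122 lower, and read-total scaling 2127 higher and 400 lower. Fitting only the 4 groups gave 738 calls. Without AAV library 1 of day 21 there were 1308 calls and without library 4 there were 3708.

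Igkc averaged 79.9 ± 66.8 normalised counts in AAV muscle at 21 dpi and 0.955 ± 0.882 in saline muscle (SD, n = 4 each), but 0.345 ± 0.148 in AAV muscle (n = 5) and 0.431 ± 0.252 in saline muscle (n = 4) at 7 dpi. At 7 dpi AAV muscle did not lie above saline muscle, and the difference between days was 5.19 ± 0.57 (adjusted p = 2.69e-08). Cxcl9 averaged 179.7 ± 79.9 in AAV and 2.44 ± 0.948 in saline muscle at 21 dpi, and 10.9 ± 5.91 and 3.19 ± 2.81 at 7 dpi (4.06 ± 0.64, adjusted p = 1.59e-05). Iigp1, Gbp6 and Gbp10 differed by 4.28 ± 0.86, 4.10 ± 0.75 and 4.05 ± 0.71. Jchain, Ighg2b and Ighg2c differed by 3.59 ± 0.49, 4.47 ± 0.46 and 4.24 ± 0.80, and edgeR did not call Ighg2b and Ighg2c. Their saline values include 0 reads, so the fitted differences depend on the added 1. Of 24 T cell genes 22 had a higher response at day 21, as had all 19 class I genes, all 10 class II genes and 18 of 19 GTPases. With edgeR these counts were 11, 19, 9 and 17, and with only the 4 groups fitted 22, 17, 7 and 10. Of 30 type I interferon genes 7 had, and 3 with only the 4 groups fitted, while Isg15 was not called, at 0.59 ± 0.50. Adgre1 differed by 1.52 ± 0.49 (adjusted p = 0.0295), a call lost without AAV library 1 or 3 of day 21, without saline library 3 or 4, and with only the 4 groups fitted.

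Postn, periostin of the matrix around injury, averaged 51.6 ± 26.8 normalised counts in AAV muscle and 11.7 ± 2.01 in saline muscle at 21 dpi, and 299 ± 76.96 and 15.4 ± 3.99 at 7 dpi (-2.25 ± 0.51, adjusted p = 0.00214). Mmp13, a collagenase, averaged 1.96 ± 1.17 in AAV and 1.46 ± 0.851 in saline muscle at 21 dpi, and 35.8 ± 27.4 and 1.27 ± 1.83 at 7 dpi (-3.58 ± 0.62, adjusted p = 6.32e-05). Prg4, Mt3, Cthrc1, Sfrp4, Clu and Tuba4a had lower responses at 21 dpi as well, between -2.13 and -1.45. Of the 24 proteasome genes 15 had a lower response at 21 dpi and none a higher one, and 2 did so under read-total scaling. Of 36 nuclear-encoded oxidative phosphorylation genes 19 had a lower response, and 8 with only the 4 groups fitted. Myh3 differed by 2.20 ± 0.80, which missed the threshold (adjusted p = 0.057), and Ankrd1, Sln and Col1a1 were not called, at 0.25 ± 0.84, 0.38 ± 0.62 and -0.60 ± 0.46.

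**Figure D4:**
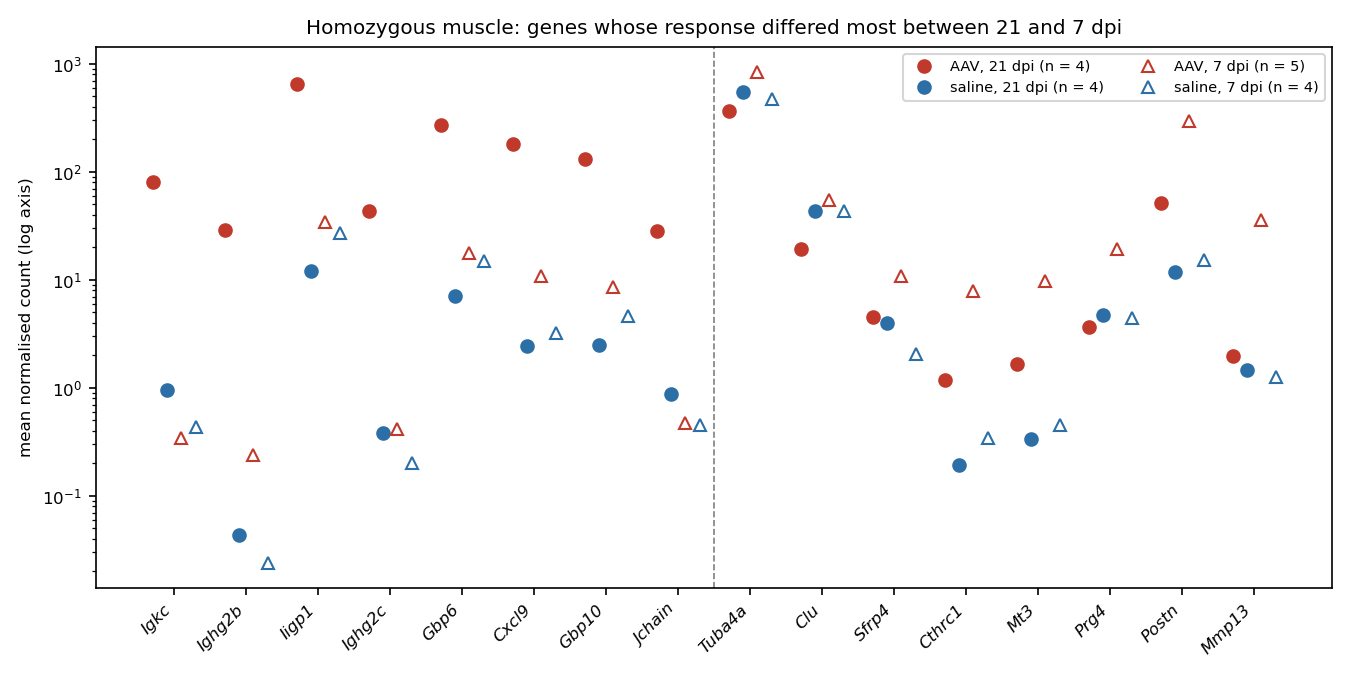
Mean normalised counts (log axis) of 16 genes in homozygous muscle: AAV and saline at 21 dpi (circles), then AAV and saline at 7 dpi (triangles). The 8 genes left of the dashed line had a higher response at 21 dpi, the 8 right of it a lower one.

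The 4 AAV libraries did not respond to the same degree. Among 2363 genes called higher without overlap and with a mean of at least 5 normalised counts, library 1 lay farthest from saline in 68.1% and library 4 nearest in 73.7%. Among 2589 such genes called lower, library 1 lay farthest in 58.7% and library 4 nearest in 77.7%. The median SD over genes on the log2 scale was 0.228 in homozygous AAV muscle and 0.134 in homozygous saline muscle. The order was not the same for all lists. The macrophage list lay 3.68, 2.11, 2.45 and 1.24 above the saline mean in libraries 1 to 4, and the GTPase list 3.41, 3.90, 3.73 and 1.91. The oxidative phosphorylation list lay at -1.19, -1.07, -1.13 and -0.52, so that the first 3 were alike. Heat shock genes lay at -0.02, 0.63, 0.56 and 0.65, with library 1 at the saline level. Library 1 had the least transgene, at 127 normalised counts, and the strongest macrophage, class II, B cell and proliferation levels, and library 4, at 866, the weakest of these levels. Library 3 held the most transgene, at 1103, yet its levels of these 4 lists lay above those of library 2, at 465. The relation of the transgene to these levels was not tested. Libraries 2 and 3 held most Ankrd1, Sln and Dsp.

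**Figure D5:**
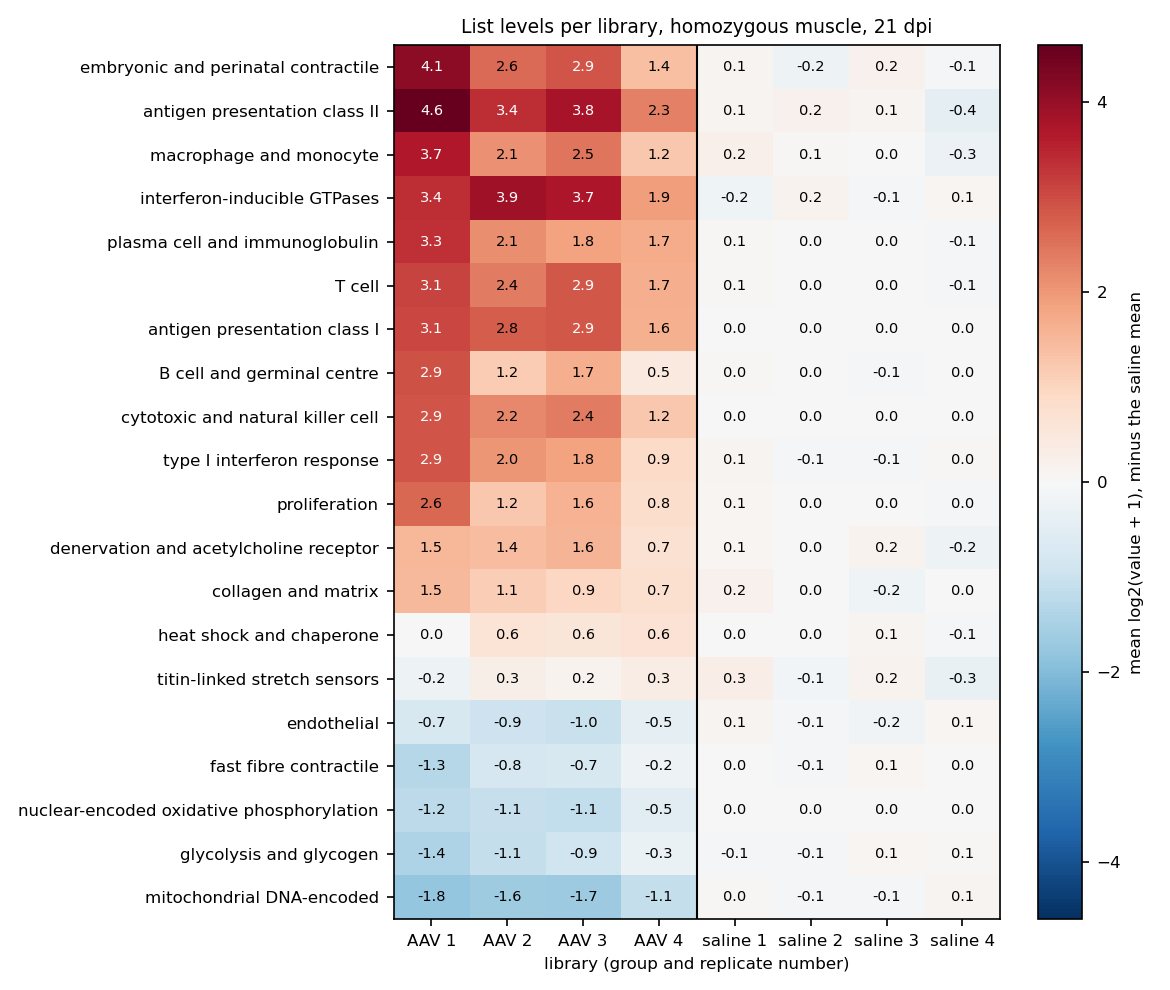
Mean log2(value + 1) of 20 lists in each homozygous library at 21 dpi, minus the mean of the 4 saline libraries, AAV left and saline right. AAV library 4 is nearest to the saline libraries in most lists, and heat shock genes are at the saline level in library 1.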

How the data were processed

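RNA from whole tibialis anterior was sequenced, 1 library per sample, and 56 samples in 14 groups were deposited. Per the labels' protocols, TRI reagent was used for extraction and NEBNext Ultra II Directional for stranded libraries. RSEM, Bowtie, FastQC and limma are named in the submitters' processing notes, with the builds GRCm38 and mm10 and no versions. The authors deposited 1 signal value per gene and library, a normalised count: once 0.5 reads are taken off, each is a whole number of reads over the library's effective size, for 100% of values within 0.02 reads. RSEM shares reads among near-identical genes, so paralogs are uncertain.

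From these values log2(value + 1) was computed for 14870 genes (the viral transgene was tested apart) with no filter. limma 3.58.1 (R 4.3.3) was fitted with an intensity trend to 14 group means over all 56 samples, and p-values were adjusted by Benjamini-Hochberg over all genes. The fitting code was tested on simulated data. On the recovered reads edgeR 4.0.16 called 8547 genes in homozygous AAV against saline muscle and DESeq2 1.42.0 called 8595.

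The members, gene lists and rules were chosen with earlier results of these data known. Genes were named by rule: the 15 largest called rises and falls with a mean of at least 5 and no overlap, the 5 most abundant called genes in each direction, the 8 largest called differences in each direction between genotypes and between days, up to 4 members of each list with the smallest p, and a short fixed list. Genes named outside that rule, as further list members, were chosen after their values were seen. Predicted genes and pseudogenes were passed over. A few genes that the rule names are not reported here.

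Replicate numbers are shared between groups. In homozygous muscle AAV and saline libraries of 1 number deviated together (r = 0.261, 0.216, 0.231 and 0.222 over 9575 genes), so blocked values are given where they change a call. No label says what the numbers mark. Alternatives were pseudocounts of 0.25 and 4, filters at a mean of 1 and 5, median-of-ratios, quantile and read-total scaling, other variance models, edgeR, DESeq2, a replicate block and leaving out each library. Read-total scaling, and leaving out libraries for the transgene, were added after the data were seen. The 56 libraries held 6901207 to 27180498 reads, with the fewest in homozygous AAV library 2 of 7 dpi.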

Additional observations from a re-analysis of the deposited data

Results flagged for a closer look

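In some groups of 4 libraries the highest or lowest library lay far from the other 3, by a gap of over 0.829 of the group's range. This was so in 8 of 82 groups of gene values and in 10 of 110 groups of list levels over 55 lists, and chance flags about 1 in 20 groups. In AAV muscle it was library 4 that stood apart for Cxcl9, with 60.34 normalised counts, and mt-Cytb, with 12960. In saline muscle it was library 1 for Cxcl10 (0.2545), Ckmt2 (1123), Myh8 (8.227) and Dsp (0.3676), library 2 for Cd8a (0.4364) and library 3 for Myh3 (15.92).

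List levels, the mean log2(value + 1) of the members, stood apart in AAV library 1 for heat shock and chaperone genes, at 6.869. In AAV library 4 they did so for denervation and acetylcholine receptor genes, at 3.907, and citrate cycle genes, at 7.097. In saline library 4 the metallothionein level was 3.901, the dendritic cell level 1.018 and the class II level 1.522. In saline library 3 the core clock level was 5.192, the cytoplasmic ribosome level 7.162 and the ribosome biogenesis level 4.582. In saline library 1 the proliferation level was 1.395.

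The AAV response differed between homozygous and WT muscle by the test of the difference (limma, adjusted over all genes) for 29 named genes, of which 8 were called with a replicate block. On the log2 scale the positive differences were 2.94 for Dsp, 2.77 for Ripply1, 2.49 for Cx3cl1, 2.3 for Aldh3a1, 2.22 for Sfrp2, 2.18 for Th, 2.16 for Sln, 2.11 for Sfrp1, 1.7 for Cd8a, 1.48 for Pdcd1 and 0.75 for Hspb8. The negative ones included -2.28 for Igkv17-127, -2.24 for Igfn1, -2.06 for Cilp, -1.82 for Ces1d, -1.82 for Efcab6, -1.72 for Grb14, -1.72 for Mdga1 and -1.7 for Jchain. Smaller ones were -1.66 for Fam57b, -1.64 for Plin4, -1.58 for Ckmt2, -1.46 for Nos1, -1.03 for Cycs, -0.93 for Kdr, -0.85 for mt-Cytb, -0.8 for Ndufv2, -0.79 for Ndufs1 and -0.63 for Atp5c1. Several of these genes had 0 reads in some libraries, so their fitted differences are no bounds.

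The homozygous response differed between 21 and 7 dpi by the same kind of test for 17 named genes, of which 11 were called in every alternative run. It was higher at 21 dpi by 5.19 for Igkc, 4.47 for Ighg2b, 4.28 for Iigp1, 4.24 for Ighg2c, 4.1 for Gbp6, 4.07 for Cxcl9, 4.05 for Gbp10, 3.59 for Jchain and 1.52 for Adgre1. It was lower at 21 dpi, with differences of -3.58 for Mmp13, -2.25 for Postn, -2.13 for Prg4, -2.06 for Mt3, -1.82 for Cthrc1, -1.72 for Sfrp4, -1.49 for Clu and -1.45 for Tuba4a.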

How the results depend on the processing

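The counts of genes called in homozygous and in WT AAV muscle against saline stayed within 1.5 times their main value in every alternative run, between 5956 and 10687 for homozygous and between 4137 and 7312 for WT muscle, though their split into higher and lower turned with the scaling. A filter at a mean of 5 gave 2482 higher and 3474 lower in homozygous muscle. The counts for differences moved. For homozygous minus WT, 785 genes were called, against 1607 under read-total scaling, 78 with only the groups compared, 402 with a variance weight per group, 38 with the replicate block and 434 to 2228 with 1 library left out. For 21 minus 7 dpi, 2110 were called, against 1328 with a filter at a mean of 5 and 738 with only the groups compared. With 1 library of 21 dpi left out, 1308 to 3708 were called. The causes were not tested.

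Of 6075 values of named genes under the alternatives, 5808 kept their side of the threshold, 232 lost the call, 24 gained it and 11 that were called in at least one of both fits changed sign. Values called in neither fit are not among the 11, though some of them changed sign. After quantile normalization these were Acta1 at 0.5, Mybpc1 at 0.03 and Ttn at 0.43, and the genotype difference of Ttn at 0.48. Under read-total scaling they were Pdlim7 at 0.08, Sgcb at 0.22, Dtna at 0.16, Cd34 at 0.14, Trim63 at 0.15, Psmb7 at 0.22 and Lamp1 at 0.17. In homozygous muscle the replicate block left 6481 calls and 209 of 220 named calls. With only the 8 samples fitted there were 6483 calls, and those lost included Atp2a1, mt-Co1, Ttn, Dtna and H19. In WT muscle same-numbered libraries hardly deviated together (r = 0.071, 0.073, 0.068 and 0.098), WT AAV library 4 correlated best with its own number and the other three did not, and the block left 4618 calls. The transgene difference was between -0.94 and 0.475 with 1 library left out. Depth limits genes near 0 reads: 85 genes had 0 reads in all saline libraries.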
